A study of Mus musculus with 10 samples.

Results

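The transcripts of 9 genes that mark amacrine cells and their transmitters were measured in whole neural retinas of BALB/c mice after 1 day of intense light. The genes were chosen by name from the 54532 genes of the deposited table, and all 9 were found there: *Gad1*, *Gad2*, *Slc32a1*, *Slc6a9*, *Th*, *Chat*, *Tfap2a*, *Pax6* and *Calb2*. BALB/c is an inbred albino strain, whose eyes lack the pigment that absorbs stray light. All mice were 2 months old and were held in the dark for 12 hr. The 5 retinas of the light damage group (LD) then received 15000 lux for 1 day, and the 5 retinas of the normal light group (NL) received 200 lux. Each retina gave 1 RNA-seq library. LD-1 and LD-7, LD-4 and LD-6, and NL-5 and NL-7 were closer to each other than other pairs of their group, and LD-1 and LD-7 stood apart from the other LD retinas in several of the values given here. The study searched these retinas for protective factors that light induces.

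Amacrine cells are interneurons of the inner retina that receive input from bipolar cells and act on bipolar cells, ganglion cells and each other. Most release GABA or glycine, and small subtypes add acetylcholine (the starburst cells) or dopamine. Glutamate decarboxylase makes GABA, the vesicular transporter SLC32A1 loads GABA or glycine into synaptic vesicles, and the glycine transporter SLC6A9 takes glycine up from outside the cell. None of the 9 genes is exclusive to amacrine cells: *Pax6* and *Calb2* are also transcribed in ganglion cells, and *Gad1*, *Gad2* and *Slc32a1* can be found in horizontal cells. In RNA from whole retina, fewer cells of a type and less RNA in each cell cannot be told apart.

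FPKM is the number of fragments of a gene divided by its length and by the depth of the library. For these genes the length counts every annotated exon base, such as 11694 over 26 transcripts for *Pax6* and 2797 over 1 for *Slc32a1*. Transcripts shorter than this length get a lower value, so levels compare only roughly between genes. None of the 9 genes passed the test between LD and NL, and every one of them had LD retinas inside the range of the NL retinas. In limma, which fits a linear model to each gene and shares the estimate of spread between genes, with p-values adjusted over all genes tested, 0 of the 9 genes had an adjusted p under 0.05, where 27.8% of the 24508 genes tested were called at this threshold. Among genes whose NL or LD mean reached 2 FPKM, as it did for all 9, 39.0% were called. At the thresholds of the study, an adjusted p under 0.01 with more than a 2-fold change, 0 of the 9 were called against a background of 6.51%. Unadjusted, 2 of the 9 genes (*Gad2* and *Pax6*) had a limma p under 0.05, against 38.2% of all genes tested. The log2 fold changes of the 9 genes ran from -0.19 to 0.21, with a median of -0.05 where the median of all genes tested was -0.01. Of the 9 values, 6 were negative and 3 positive, and all 9 were under 0.25 in size, as were 49.8% of all genes tested. The median size of the change was 0.12 for the 9 genes and 0.25 for all genes tested. The 95% intervals of the log2 fold change reached at most from -0.50, the lower end for *Th*, to 0.39, the upper end for *Pax6*, so a 2-fold change in either direction lay outside the interval of each gene. The 5 LD values did not separate from the 5 NL values in any of the 9 genes, while they did in 22.4% of all genes tested.

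**Figure D1:**
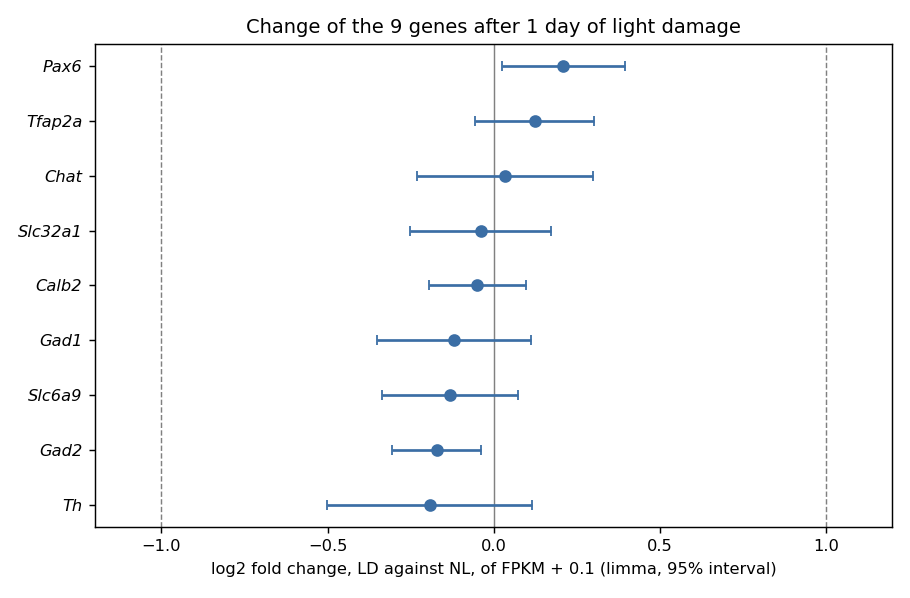
Log2 fold change of FPKM + 0.1 between LD and NL for each of the 9 genes (points) with the 95% interval from limma (bars, 5 retinas per group). Dashed lines mark a 2-fold change in each direction, and all intervals lie inside them, from -0.50 to 0.39.

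Of 16 immediate early genes, which neurons and other cells transcribe soon after a stimulus, 10 rose and 0 fell, with a median log2 fold change of 0.95. At the same adjusted p under 0.05 in limma, 14.5% of all genes tested were higher and 13.4% lower. *Junb* went from 12.4 ± 0.664 to 87.2 ± 15.7 FPKM, *Egr3* from 0.222 ± 0.0476 to 1.58 ± 0.153 FPKM, and *Egr2* from at most 0.103 FPKM in any NL retina to 2.32 to 3.66 FPKM in the LD retinas. Proteins of these families bind short DNA elements, and whole retina RNA does not tell in which cells they rose. Start site windows from RefSeq (GRCm38.p6, 300 bases, 250 before and 50 after the start) were given for 8 of the 9 genes, 12 windows in all, and not for *Calb2*. The windows were searched on both strands for the AP-1 element TGANTCA, the cyclic AMP response element TGACGTCA, the EGR element GCGNGGGCG and the TATA box TATAAA. *Th*, *Pax6* and *Gad1* had an element of the first 3 kinds, and their windows are shown with these elements in capitals.
Th, chr7:142899946-142900245, minus strand: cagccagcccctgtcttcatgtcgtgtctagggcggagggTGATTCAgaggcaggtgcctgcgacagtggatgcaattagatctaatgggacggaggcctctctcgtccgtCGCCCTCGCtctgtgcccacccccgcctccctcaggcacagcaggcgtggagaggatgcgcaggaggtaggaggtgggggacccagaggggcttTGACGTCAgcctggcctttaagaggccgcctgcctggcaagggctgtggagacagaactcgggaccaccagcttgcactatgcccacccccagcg
Pax6, chr2:105668646-105668945, plus strand: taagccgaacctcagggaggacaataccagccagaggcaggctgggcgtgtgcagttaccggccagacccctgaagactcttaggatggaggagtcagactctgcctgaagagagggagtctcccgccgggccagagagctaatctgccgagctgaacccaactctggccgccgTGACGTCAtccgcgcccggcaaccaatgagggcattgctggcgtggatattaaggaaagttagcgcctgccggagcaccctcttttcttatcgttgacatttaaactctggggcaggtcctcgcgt
Gad1, chr2:70561879-70562178, plus strand: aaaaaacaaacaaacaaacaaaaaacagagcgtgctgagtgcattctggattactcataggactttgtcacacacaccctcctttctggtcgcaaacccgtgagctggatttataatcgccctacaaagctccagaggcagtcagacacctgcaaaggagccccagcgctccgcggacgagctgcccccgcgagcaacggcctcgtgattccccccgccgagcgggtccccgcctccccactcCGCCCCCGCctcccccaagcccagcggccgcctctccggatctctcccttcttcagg
In the window of *Th* the capitals mark, from left to right, an AP-1 element 210 bases before the start, an EGR element on the other strand 139 bases before it and a cyclic AMP response element 45 bases before it. In the first of 2 windows of *Pax6* they mark a cyclic AMP response element 76 bases before the start, and in that of *Gad1* an EGR element on the other strand 7 bases before it. Of all 32851 windows, 1.79% hold the cyclic AMP response element, 7.81% the AP-1 element and 5.55% the EGR element. The TATA box letters, held by 13.6% of all windows, were found among the 12 only in that of *Gad1*, on the other strand. The windows of *Th* and *Gad1* lie inside the span that the table gives these genes, since it starts farther upstream. The elements do not overlap each other in these windows, and a match is a description of letters and not of binding. *Th*, with all 3 elements, had a log2 fold change of -0.19 (95% interval -0.50 to 0.12), *Pax6* one of 0.21 (0.02 to 0.39) and *Gad1* one of -0.12 (-0.35 to 0.11), and none of them passed the test.

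On the FPKM scale, with its limit between genes, *Calb2* was highest in the NL retinas, followed by *Gad1*, *Pax6*, *Slc32a1*, *Slc6a9*, *Gad2*, *Tfap2a*, *Chat* and *Th*. The mean FPKM fell along this order from 152 for *Calb2* to 2.52 for *Th*. *Calb2* exceeded the next gene by 3.86 times in the NL mean, with no overlap between their retinas. The NL ranges of *Gad1* and *Pax6*, of *Pax6* and *Slc32a1*, of *Slc32a1* and *Slc6a9*, and of *Chat* and *Th* overlapped when different retinas were compared. Within a retina, however, *Gad1* was above *Pax6* in 5 of 5 NL retinas and *Slc32a1* above *Slc6a9* in 5 of 5, whereas *Chat* was above *Th* in 3 of 5. In the LD retinas the order was the same except that *Pax6* stood above *Gad1*, in 4 of 5 retinas and with overlapping ranges.

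**Figure D2:**
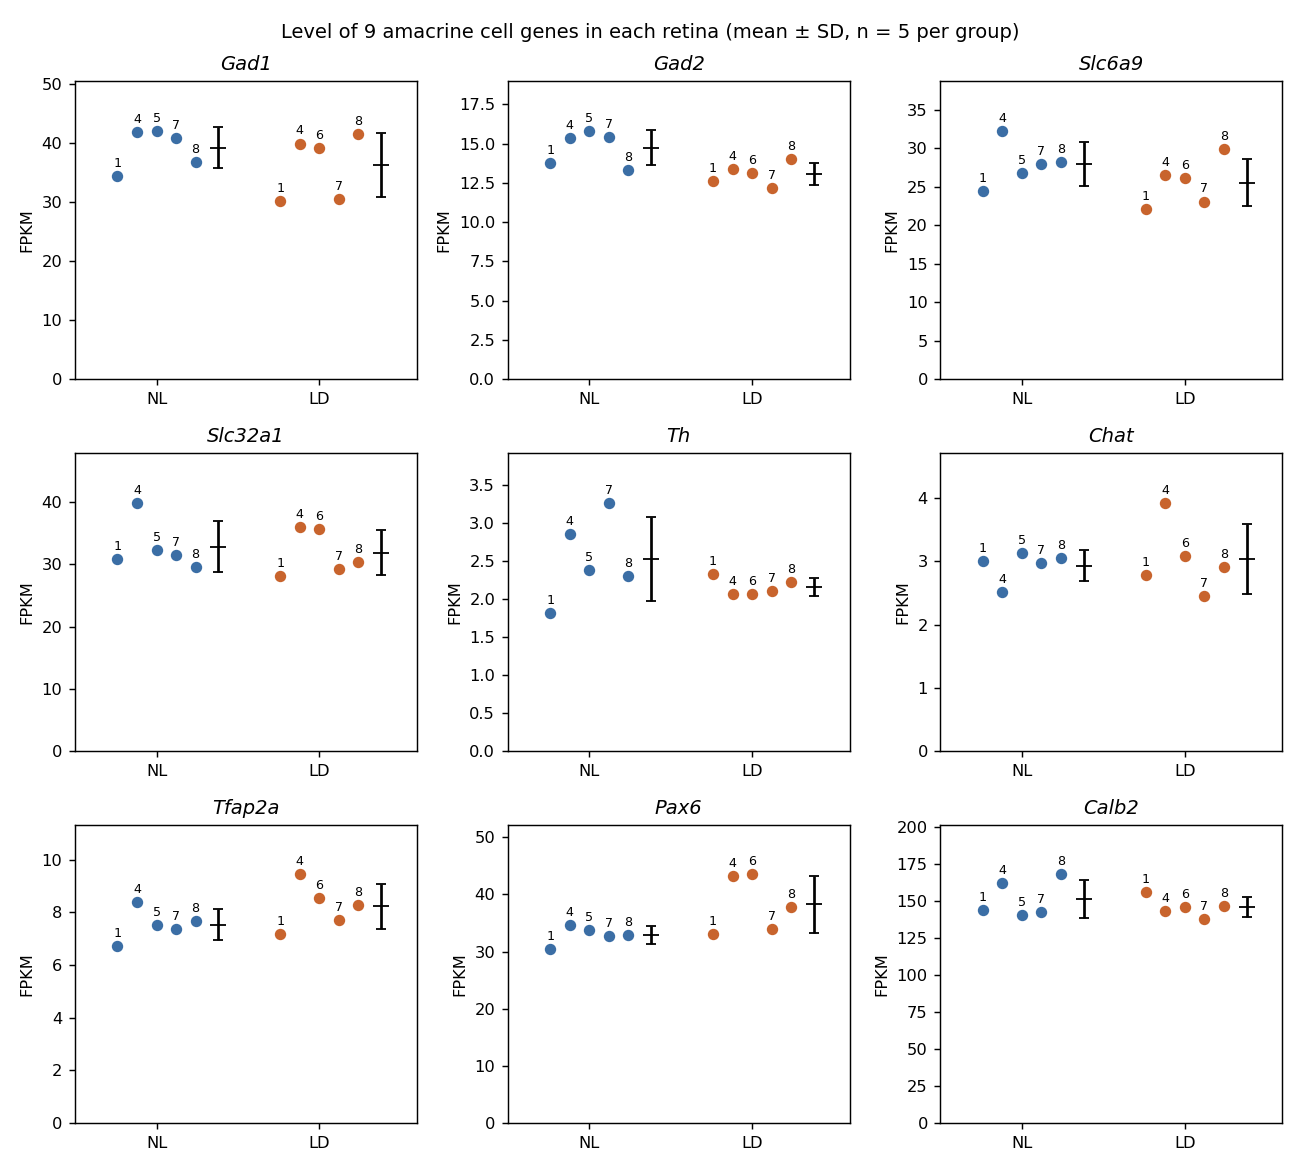
FPKM of each gene (9 panels, each with its own axis from 0) in the 5 NL and the 5 LD retinas. Points are retinas with their replicate numbers, and bars are the mean ± SD beside them. The groups overlap in every panel, LD-1 and LD-7 sit low for *Gad1* at 30.2 and 30.6 FPKM, and LD-4 and LD-6 sit high for *Pax6* at 43.3 and 43.5 FPKM.

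*Gad1* encodes GAD67, the glutamate decarboxylase that makes most of the GABA of resting neurons. The gene (ENSMUSG00000070880) lies on chromosome 2 from 70553072 to 70602014 on the plus strand (GRCm38, as all positions here). Its level was 34.5, 41.9, 42.1, 40.9 and 36.8 FPKM in NL-1, NL-4, NL-5, NL-7 and NL-8. In LD-1, LD-4, LD-6, LD-7 and LD-8 it was 30.2, 40.0, 39.2, 30.6 and 41.6 FPKM. LD-1 and LD-7 were below all NL retinas and the other 3 LD retinas were inside the NL range. The NL mean was 39.2 ± 3.43 FPKM and the LD mean 36.3 ± 5.46 FPKM (SD over n = 5 retinas, as for each mean given with ±), a ratio of 0.920 (on the FPKM + 0.1 scale of the test, as all ratios between the groups) with a 95% interval of 0.784 to 1.08 and an adjusted p of 0.442 in limma. Between 5329 and 7256 reads per retina stood behind these values, so counting error was small beside the spread between retinas. Without LD-1 and LD-7, left out together after the values were seen, the log2 fold change was 0.04 in place of -0.12.

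*Gad2* encodes GAD65, the decarboxylase tied to synaptic terminals. It lies on chromosome 2 from 22622205 to 22693874, plus strand (ENSMUSG00000026787). The NL retinas, in the order given for *Gad1*, had 13.8, 15.3, 15.8, 15.4 and 13.3 FPKM. The LD retinas had 12.6, 13.4, 13.1, 12.2 and 14.0 FPKM. All 5 LD retinas were below the NL median, 3 of them below the lowest NL retina, and LD-8 and LD-4 were inside the NL range. The means were 14.7 ± 1.11 and 13.1 ± 0.724 FPKM, a ratio of 0.888 with a 95% interval of 0.810 to 0.974. The adjusted p was 0.0580 in limma, and the two-sided exact permutation test gave p = 0.0476, where 0.00794 is the smallest p it can give with 5 against 5. It was the only 1 of 9 such exact tests with a p under 0.05, and no correction was made over the 9. Calls for *Gad2* depended on the setting: the adjusted p was 0.0456 when only genes of at least 1 FPKM were tested, 0.0288 without NL-8 and 0.0430 without LD-8, with log2 fold changes of -0.17, -0.21 and -0.20. On TPM, without the factor per retina and in limma-voom on the recovered reads, the change shrank to -0.07, -0.04 and -0.04. The adjusted p-values there were 0.388, 0.678 and 0.695 in limma. The median of all genes was at 0.09, 0.11 and 0.12 in these settings, and relative to it *Gad2* was at -0.16, -0.15 and -0.16. In the reported fit this relative value was -0.16 as well. The ratio of *Gad1* to *Gad2* within a retina was 2.66 ± 0.101 under NL and 2.77 ± 0.289 after LD, with ranges of 2.50 to 2.76 and 2.39 to 2.99 that overlapped.

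*Slc32a1* encodes the vesicular transporter shared by GABA and glycine neurons and has 1 annotated transcript, on chromosome 2 from 158610767 to 158615748, plus strand (ENSMUSG00000037771). The NL retinas had 30.8, 39.9, 32.2, 31.5 and 29.6 FPKM, with NL-4 standing above the rest. The LD retinas had 28.2, 36.02, 35.6, 29.3 and 30.3 FPKM. LD-1 and LD-7 were below the lowest NL retina and the other 3 were inside the NL range. The means were 32.8 ± 4.10 and 31.9 ± 3.67 FPKM, a ratio of 0.973 with a 95% interval of 0.839 to 1.13 (limma, adjusted p = 0.806). The antisense gene Gm14205 shares 697 exonic bases with it but was low, with means of 0.173 (NL) and 0.0571 FPKM (LD).

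*Slc6a9* encodes GLYT1, the plasma membrane glycine transporter of glycinergic amacrine cells. It lies on chromosome 4 from 117834506 to 117875198, plus strand (ENSMUSG00000028542). In NL it stood at 24.4, 32.3, 26.8, 28.05 and 28.2 FPKM, and in LD at 22.1, 26.6, 26.1, 23.1 and 29.9 FPKM. LD-1 and LD-7 were again below the lowest NL retina, and LD-8 was above the NL median. The means were 27.96 ± 2.86 and 25.6 ± 3.10 FPKM, a ratio of 0.913 with a 95% interval of 0.792 to 1.05 (limma, adjusted p = 0.339). Exons of *Slc6a9* share 1429 bases with *Ccdc24* and 46 bases with *B4galt2*, which lie on the other strand, and the library kit named in the labels does not keep the strand. *Ccdc24* fell from 7.96 ± 0.836 to 1.77 ± 0.364 FPKM and *B4galt2* from 14.9 ± 0.796 to 10.4 ± 0.548 FPKM, at adjusted p-values of 1.57e-06 and 4.35e-05 in limma. How reads in the shared bases were assigned is not stated in the sources used here, and their part in the value of *Slc6a9* was not tested.

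*Th* encodes tyrosine hydroxylase, which makes L-DOPA and marks the dopaminergic amacrine cells, a very sparse subtype. The table places it on chromosome 7 from 142892752 to 142931128, minus strand (ENSMUSG00000000214). It had the lowest level of the 9 genes, with 92 to 164 reads in an NL and 99 to 134 reads in an LD library. The NL retinas had 1.82, 2.85, 2.38, 3.27 and 2.30 FPKM, and the LD retinas had 2.32, 2.07, 2.06, 2.10 and 2.22 FPKM. All 5 LD retinas were below the NL median and inside the NL range, and the NL retinas were the more scattered, with a coefficient of variation of 21.98% against 5.37% after LD. With so few reads, counting error was not small beside the LD spread, and the difference in scatter was not tested. The means were 2.52 ± 0.554 and 2.15 ± 0.116 FPKM, a ratio of 0.875 with a 95% interval of 0.707 to 1.08 (limma, adjusted p = 0.350). The interval is the widest of the 9 genes on the lower side.

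*Chat* encodes choline acetyltransferase, which makes acetylcholine in starburst amacrine cells. It lies on chromosome 14 from 32408203 to 32465989, minus strand (ENSMUSG00000021919). Its level was 3.00, 2.51, 3.13, 2.97 and 3.06 FPKM in the NL retinas and 2.79, 3.93, 3.09, 2.46 and 2.91 FPKM in the LD retinas. NL-4 was the lowest NL retina, while LD-4 was the highest of all and LD-7 the lowest of all. The means were 2.94 ± 0.244 and 3.04 ± 0.552 FPKM, a ratio of 1.02 with a 95% interval of 0.852 to 1.23 (limma, adjusted p = 0.869). *Slc18a3*, the vesicular acetylcholine transporter gene, is nested inside *Chat* on the same strand without sharing exonic bases. It had 3.29, 3.55, 3.55, 3.34 and 3.87 FPKM under NL and 3.67, 4.82, 4.74, 3.62 and 4.17 FPKM after LD. Its log2 fold change was 0.24 with a 95% interval of 0.03 to 0.45 and an adjusted p of 0.0866 in limma, so it did not pass either. The ratio of *Slc18a3* to *Chat* within a retina was 1.10 to 1.41 under NL and 1.23 to 1.54 after LD.

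*Tfap2a* encodes the transcription factor AP-2 alpha, which acts in amacrine cell development and is kept in mature amacrine cells. It lies on chromosome 13 from 40715302 to 40738376, minus strand (ENSMUSG00000021359). The NL retinas had 6.72, 8.38, 7.53, 7.37 and 7.66 FPKM, and the LD retinas had 7.17, 9.45, 8.53, 7.70 and 8.29 FPKM. LD-4 and LD-6 were above the highest NL retina, and the other 3 LD retinas were inside the NL range. The means were 7.53 ± 0.596 and 8.23 ± 0.863 FPKM, a ratio of 1.09 with a 95% interval of 0.962 to 1.23 (limma, adjusted p = 0.300). The antisense genes Gm26688, Gm47061 and Gm47067 share 380, 265 and 73 exonic bases with it, with NL means of 0.884, 0.503 and 0.133 FPKM, and reads in these bases cannot be told apart by strand.

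*Pax6* encodes the paired-box homeodomain factor that amacrine, ganglion and horizontal cells keep into adulthood. It lies on chromosome 2 from 105668900 to 105697364, plus strand (ENSMUSG00000027168), and was the most deeply counted of the 9, with 7607 to 11385 reads per retina. The NL retinas had 30.4, 34.7, 33.8, 32.7 and 32.9 FPKM, a coefficient of variation of 4.84% that was the smallest of the 9 genes under NL. The LD retinas had 33.0, 43.3, 43.5, 33.9 and 37.7 FPKM. All 5 LD retinas were above the NL median and LD-4, LD-6 and LD-8 were above all NL retinas, while LD-1 and LD-7 were inside the NL range. The means were 32.9 ± 1.59 and 38.3 ± 4.996 FPKM, a ratio of 1.16 with a 95% interval of 1.02 to 1.31. The adjusted p was 0.0890 in limma, and the two-sided exact permutation test gave p = 0.0556. Calls for *Pax6* depended on the scaling and on the retinas: the adjusted p was 0.0131 on TPM, 0.0131 on FPKM without the factor per retina, 0.00760 in limma-voom on the recovered reads, 0.0499 after quantile normalization, 0.0333 without LD-1 and 0.00426 without LD-1 and LD-7. On TPM, without the factor and in limma-voom, the median of all genes was at 0.09, 0.11 and 0.12, and relative to it the log2 fold change of *Pax6* was 0.22, 0.23 and 0.22. The antisense gene *Pax6os1*, which shares no exonic bases with *Pax6*, had 3.95 ± 0.958 FPKM in the NL and 2.93 ± 0.366 FPKM in the LD retinas (limma, adjusted p = 0.105).

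*Calb2* encodes calretinin, a calcium-binding protein of many amacrine and ganglion cells. It lies on chromosome 8 from 110137502 to 110168210, minus strand (ENSMUSG00000003657). Calretinin transcripts reached 144, 162, 141, 143 and 168 FPKM under NL and 156, 143, 146, 138 and 147 FPKM under LD. LD-1 was the highest LD retina, as it was for *Th*, and LD-7 was the 1 LD retina below the lowest NL retina. The means were 152 ± 12.7 and 146 ± 6.57 FPKM, a ratio of 0.966 with a 95% interval of 0.874 to 1.07 (limma, adjusted p = 0.629).

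Within the groups the 9 genes tended to be high or low in the same retinas. LD-1 and LD-7 were the pair with the lowest LD values in 7 of the 9 genes, all but *Th* and *Calb2*. The same pair was lowest in 4905 of the 24508 genes tested, and in 24.6% of those whose NL or LD mean reached 2 FPKM. In LD-7 all 9 genes were below the LD mean, and in LD-1 this held for 7 of 9. Of the NL retinas, NL-1 was below the group mean in 8 of 9 genes and NL-4 above it in 8 of 9. After subtraction of the group means, 32 of the 36 pairs of genes had a positive Pearson r across the 10 retinas, with a median of 0.43. The highest r was 0.88, between *Tfap2a* and *Pax6*, and *Gad1* and *Slc6a9* had 0.84. The lowest was -0.31, between *Gad2* and *Calb2*. All points of such a correlation share the same 10 libraries, their depth and the scaling of each retina, so the values are a description. LD-1 and LD-7 also had the highest summed level of 10 microglial markers, 155 and 135 FPKM where LD-4, LD-6 and LD-8 had 65.6 to 99.4 FPKM. The 15 bipolar cell markers summed to 1378 and 1283 FPKM in LD-1 and LD-7 and to 1145 to 1224 FPKM in the other LD retinas, an order set by *Gnb3* alone (named after its values were seen), which had 885 and 797 FPKM there. Without *Gnb3* the other 14 summed to 493 and 486 FPKM in LD-1 and LD-7, below the 613 to 678 FPKM of the others. Their summed level of 14 rod markers, 3361 and 2829 FPKM, was not apart from that of LD-8 at 3260 FPKM but above LD-4 and LD-6 at 1744 and 1858 FPKM. The part of these in the levels of the 9 genes was not tested.

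**Figure D3:**
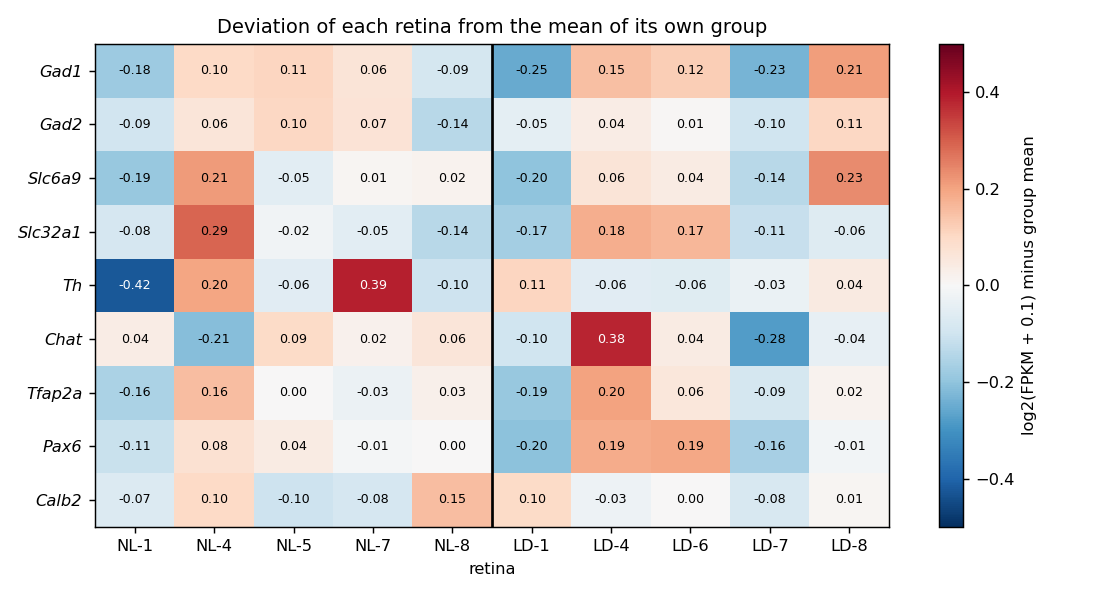
Deviation of log2(FPKM + 0.1) from the mean of the retina's own group, for 9 genes (vertical) in 10 retinas (horizontal). Red is above and blue below the group mean, with the value in each cell. LD-1 is below its group mean for 7 genes, all but *Th* and *Calb2*, and LD-7 for all 9.

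Among 12427 other protein-coding genes that averaged 1 FPKM or more, those most like each gene in these deviations were chosen by Pearson r over the 10 retinas, and the highest of so many values is large by selection. They were *Klf15* and *Lyve1* for *Gad1* (r = 0.98 each), *Them6* and *Nme1* for *Gad2* (0.98 each), *Tbx3* and *Barhl2* for *Slc32a1* (0.99 and 0.98) and *Tmem200c* for *Slc6a9* (0.97). *Barhl2* is itself a transcription factor gene of amacrine cells. For *Th* they were *Zfp940* and *Rps29* (0.94 and 0.93), for *Chat* *Sapcd1* and *Osbpl1a* (0.95 and 0.94), and for *Calb2* *Ydjc* and Gm11273 (0.94 and 0.92). *Plcd1* and *Ptprf* were closest to *Pax6* (0.99 each), and *Rasgrf1* and *Bahcc1* to *Tfap2a* (0.98 and 0.97).

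Other genes of the same transmitter systems and of amacrine cell identity passed the test less often than all genes tested, at 22.4% against 27.8%. The size of this gap was not tested. Across 8 lists of transmitter, identity and activity genes without the 9 genes themselves, 29 of the 100 distinct genes tested passed an adjusted p under 0.05 in limma, 20 higher and 9 lower after LD, where 14.5% of all genes tested were higher and 13.4% lower. Immediate early genes made up 10 of the 20, and in the other 7 lists 19 of 85 genes (22.4%) passed, beside 27.8% of all genes tested. The share was 39.0% among all genes whose NL or LD mean reached 2 FPKM, which some of the 85 did not. Of the GABA metabolism and transport genes, 0 of 8 rose and 2 fell. *Glul*, the glutamine synthetase of Muller glia, fell from 711 ± 94.8 to 165 ± 8.77 FPKM, or -2.09 ± 0.10 (SE) on the log2 scale, with an adjusted p of 1.99e-07 in limma. None of the 4 genes of glycine transport passed, and the most abundant of them, *Slc6a17*, had 17.3 ± 2.73 FPKM in the NL and 16.7 ± 2.81 FPKM in the LD retinas.

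Of the 17 receptor subunits and anchors for GABA and glycine, 1 passed. *Gphn*, the gene of the scaffold gephyrin, fell by 0.17 on the log2 scale (16.3 ± 0.327 to 14.5 ± 0.170 FPKM, adjusted p = 0.00257 in limma). This call was lost on TPM (adjusted p = 0.190), without the factor per retina (0.443) and in limma-voom (0.561). *Gabbr1*, the most abundant of the 17, had 34.7 ± 1.31 FPKM in the NL and 35.6 ± 1.18 FPKM in the LD retinas (adjusted p = 0.567 in limma). It passed under 3 of 24 settings, with an adjusted p as low as 0.0131 in limma and a log2 fold change of up to 0.17. The log2 fold changes of the 17 genes ran from -0.21 to 0.19.

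Of the 12 cholinergic genes beside *Chat*, 2 rose and 1 fell. *Ache*, which encodes the enzyme that breaks down acetylcholine, had 20.5 to 30.8 FPKM in the NL and 37.3 to 47.7 FPKM in the LD retinas, with no overlap. It rose by 0.72 ± 0.11 (SE) on the log2 scale, with an adjusted p of 6.40e-04 in limma. The nicotinic receptor subunit gene *Chrna3* rose by 0.41 on the log2 scale (adjusted p = 0.00872) and *Chrna6* fell by 0.51 on the same scale (adjusted p = 1.86e-04), both in limma. The call for *Chrna3* was lost with the closest pairs averaged (adjusted p = 0.0546).

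Of the 10 dopaminergic genes beside *Th*, 9 were tested, and 3 rose and 1 fell. *Gch1*, which encodes the first enzyme in the synthesis of the cofactor of tyrosine hydroxylase, rose from 0.160 ± 0.0437 to 0.707 ± 0.155 FPKM (adjusted p = 1.26e-04 in limma), with 15 to 37 reads per NL retina. *Maoa*, which encodes a monoamine oxidase, rose by 0.49 on the log2 scale (adjusted p = 0.00246 in limma). *Drd4*, a dopamine receptor gene that is known chiefly from photoreceptors, fell from 59.9 ± 12.7 to 19.1 ± 3.73 FPKM (adjusted p = 5.54e-05 in limma). The dopamine transporter gene *Slc6a3*, which also marks dopaminergic cells, was too low to be tested, with at most 12 reads in any retina.

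Of the 18 other transcription factor genes of amacrine cells, 15 were tested, and 2 rose and 1 fell. *Ptf1a* and *Foxn4*, which act in amacrine cell development, had at most 5 reads in any retina, and *Ebf2* was not tested either. *Sox2*, which is transcribed in starburst amacrine cells and in Muller glia, rose from 17.5 ± 0.862 to 36.7 ± 6.80 FPKM (log2 fold change 1.04, adjusted p = 8.80e-05 in limma). The log2 fold change of *Ebf3* was 0.26 (adjusted p = 0.0286 in limma) and that of *Meis1* was -0.24 (adjusted p = 0.00719 in limma), and both calls were lost under some settings, with adjusted p-values of up to 0.197 and 0.137. *Tfap2b*, the paralog of *Tfap2a* and the most abundant of the list, had 33.3 ± 0.699 FPKM in the NL and 32.4 ± 3.06 FPKM in the LD retinas (adjusted p = 0.651 in limma). In the same test *Tfap2a* itself stood at a log2 fold change of 0.12.

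Of the 20 peptide and subtype genes, 3 rose and 3 fell. The neuropeptide genes *Cck*, *Vip* and *Tac1* had log2 fold changes of 0.79, 0.76 and 0.54 with adjusted p-values of 0.00798, 0.00792 and 0.00315 in limma. *Vip* had 2.63 to 4.04 FPKM in the NL and 3.99 to 6.76 FPKM in the LD retinas, so the groups met at the edge. *Tac1* had 4.53 to 5.48 FPKM in the NL and 5.86 to 8.71 FPKM in the LD retinas, with no overlap. *Snap25*, a synaptic vesicle fusion gene of many retinal neurons, had 169 ± 3.15 FPKM in the NL and 150 ± 9.90 FPKM in the LD retinas (adjusted p = 0.0360 in limma), and this call was lost under 18 of 24 settings. The median log2 fold change of the 20 genes was 0.00, that of the GABA metabolism list -0.16, of glycine transport 0.17, of the receptors -0.05, of the cholinergic list 0.06, of the dopaminergic list 0.02 and of the transcription factor list 0.08.

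**Figure D4:**
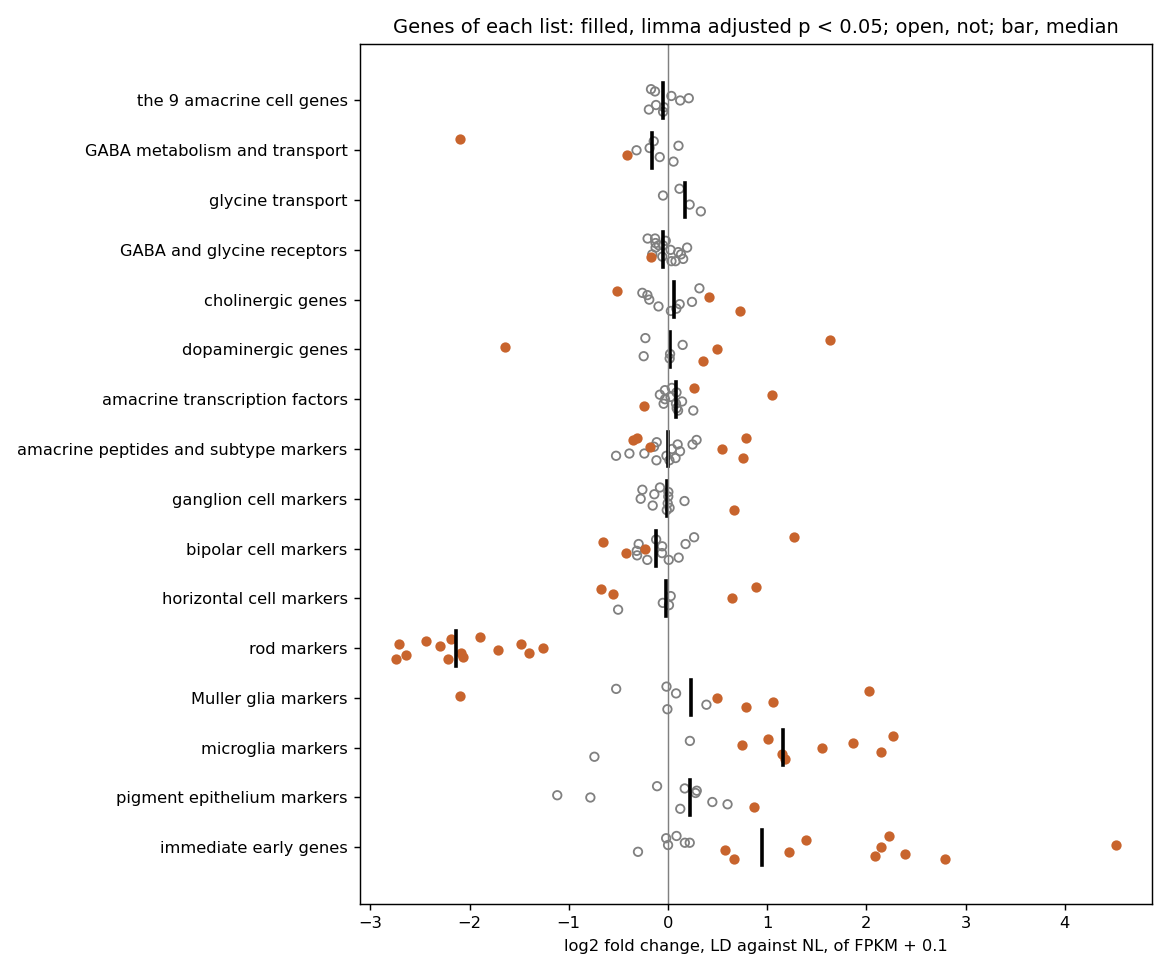
Log2 fold change of FPKM + 0.1 between LD and NL (horizontal) for the genes of each list (vertical). Filled points passed an adjusted p under 0.05 in limma, open points did not, and black bars are medians. The 9 amacrine genes lie between -0.19 and 0.21 with none filled, and the 14 rod markers lie between -2.74 and -1.26 with all filled.

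Markers of other cell types were measured in the same libraries. All 14 rod markers fell, by 1.26 to 2.74 on the log2 scale, and their share of all reads went from 5.04% to 5.83% in the NL to 0.913% to 1.72% in the LD retinas. The 9 amacrine genes together held 0.117% to 0.138% of reads under NL and 0.126% to 0.155% after LD. Of the 12 ganglion cell markers 1 passed the test, of the 15 bipolar cell markers 4, of the 8 horizontal cell markers 4, of the 10 Muller glia markers 5, of the 10 microglial markers 8 and of the 10 pigment epithelium markers 1. The share over all genes tested was 27.8%, and 39.0% among those whose NL or LD mean reached 2 FPKM. The bipolar cell markers, 1 higher and 3 lower with a median log2 fold change of -0.12, summed to 897 to 925 FPKM under NL and 1145 to 1378 FPKM after LD, but to 581 to 688 FPKM and 486 to 678 FPKM without *Gnb3*. The microglial markers, all 8 that passed being higher, summed to 33.3 to 51.9 FPKM under NL and 65.6 to 155 FPKM after LD, and the pigment epithelium markers to 57.6 to 154 FPKM under NL and 66.3 to 128 FPKM after LD, so that some pigment epithelium RNA was present in both groups. The ganglion cell markers summed to 291 to 336 FPKM under NL and 287 to 341 FPKM after LD, the horizontal cell markers to 80.0 to 109 FPKM and 71.4 to 93.7 FPKM, and the Muller glia markers, 4 higher and 1 lower, to 1562 to 1784 FPKM and 1192 to 1558 FPKM. Without *Glul*, the 1 that was lower, the other 9 Muller glia markers summed to 916 to 1049 FPKM under NL and 1026 to 1388 FPKM after LD. The 9 amacrine genes summed to 290 to 340 FPKM under NL and 280 to 318 FPKM after LD, and the part of the other cells in their levels was not tested. Each retina had between 18965090 and 26832535 reads, and the deposited values carry a factor per retina of 0.951 to 0.968 under NL and 1.04 to 1.07 after LD. Of the genes called at an adjusted p under 0.05, 3543 were higher and 3275 lower, against 5761 and 2013 without that factor.

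The direction of the smallest changes turned with the processing. Under 24 alternative settings, the log2 fold change of *Pax6* stayed positive, from 0.16 to 0.34, as did that of *Tfap2a*, from 0.07 to 0.25. Those of *Gad2* and *Th* stayed negative, from -0.21 to -0.04 and from -0.30 to -0.06. Those of *Gad1*, *Slc6a9*, *Slc32a1*, *Chat* and *Calb2* took both signs and lay between -0.19 and 0.16. On TPM, without the factor and in limma-voom the median of all genes also moved, to 0.09, 0.11 and 0.12. Relative to it *Gad1*, *Slc6a9*, *Slc32a1* and *Calb2* were negative in these settings.

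**Figure D5:**
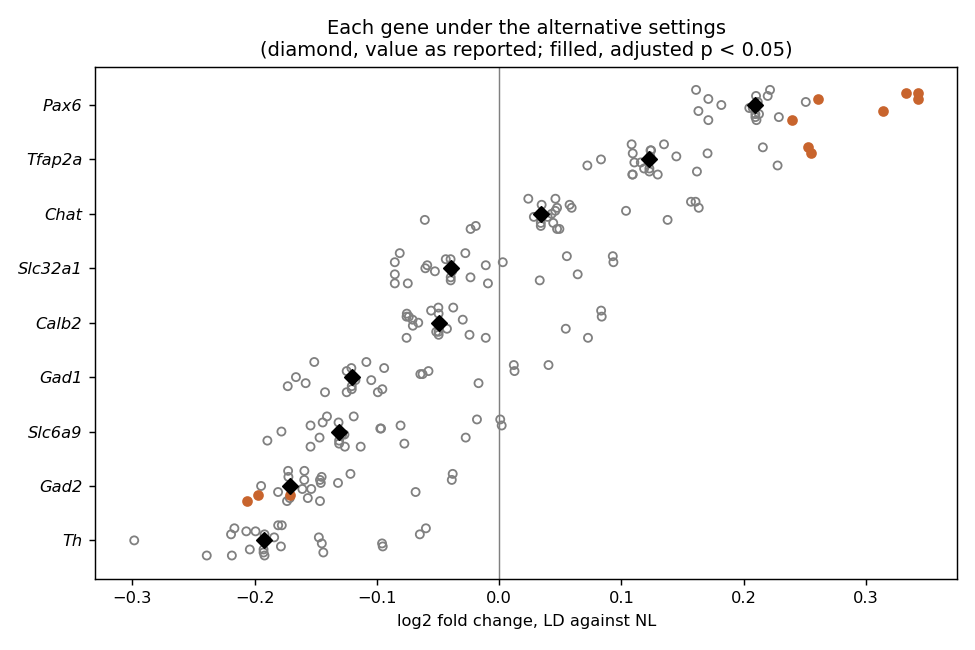
Log2 fold change of each of the 9 genes (vertical) as reported (black diamonds) and under 24 alternative settings (circles). Filled circles have an adjusted p under 0.05, which occurs only for *Pax6* (6 settings), *Tfap2a* (2) and *Gad2* (3).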

How the data were processed

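Total RNA of 10 BALB/c neural retinas was extracted with TRIzol and made into libraries with a kit that does not mark the strand. What the authors deposited is 1 table with the FPKM of 54532 genes and their positions. The submitters' processing notes name TopHat2 2.0.9, Bowtie2 2.0.6 and the build mm8, but the positions are on GRCm38: all 9 genes have the same position in GENCODE release M21, as do 53499 of the 54532. The counting program, its strand setting and its annotation are not given in the sources used here. FPKM times gene length gave whole reads for 100% of the values above 0 (within 0.01 read), so depth and reads per gene were recovered.

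Values were put on the scale log2(FPKM + 0.1), and a gene was kept where 5 or more retinas reached 0.1 FPKM, which left 24508 genes. The 2 light groups were contrasted in limma 3.58.1 (R 4.3.3) (variance moderated along the mean level, without a block), and p-values were adjusted over all tested genes after Benjamini and Hochberg. The added 0.1 shrinks fold changes of genes at low levels. Calls used an adjusted p under 0.05, or the thresholds of the study (under 0.01 with more than 2-fold). For the 9 genes a two-sided exact permutation test was added (252 splits of the retinas, scipy 1.17.1 under Python 3.11.15, with numpy 2.4.6 and pandas 2.3.3), and figures were drawn with matplotlib 3.10.9. After the fits, the same model was also run on simulated data with known changes, which were larger than those of the 9 genes. No result given here rests on that run.

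The authors call the 5 samples of a group biological replicates, but neither labels nor methods say whether retinas shared a mouse, so p-values measure the spread between samples, which may be partly technical. The chi-square per gene was 2.65 (LD-4 and LD-6), 2.87 (NL-5 and NL-7) and 3.65 (LD-1 and LD-7) for the closest pairs and 12.2 or more for others. These exceed sampling noise, and all 10 were kept as separate samples.

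The 9 genes and all lists were chosen with earlier results of these data known. The genes named are the 9 genes, up to 3 genes of each transmitter, identity or activity list with the largest change among those past the adjusted p of 0.05 and with a mean of at least 0.5 FPKM, the most abundant gene of each such list, genes that overlap the 9, the 2 genes most like each of the 9, and defining markers near 0. Of the genes this picks, 2 are not reported here. Marker lists of other cell types are given by counts and sums. *Slc18a3* was named for its position inside *Chat*, and *Gnb3* after its values were seen. As alternatives, other pseudocounts (1 and 0.01), filters, scalings, models and subsets of retinas were tried. The set without LD-1 and LD-7 was chosen after seeing the data. There were 0 unused columns of samples.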

Additional observations from a re-analysis of the deposited data

Results flagged for a closer look

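Among 31 genes picked by the rule for the 9 genes and their transmitter, identity and activity lists, 62 groups of 5 retinas were examined for a retina far from the others, by Dixon's ratio of its gap to the range of the group against 0.71. This picked 4 values, where chance gives about 3.1 (1 in 20). *Slc32a1* reached 39.9 FPKM in NL-4 while the rest of NL had 29.6 to 32.2 FPKM, a ratio of 0.742. *Chat* was at 2.51 FPKM in NL-4 against 2.97 to 3.13 FPKM, a ratio of 0.747. *Meis1* was at 7.42 FPKM in NL-1 against 6.63 to 6.82 FPKM, a ratio of 0.766. *Egr2* reached 0.103 FPKM in NL-8 while the rest of NL had 0 to 0.0277 FPKM, a ratio of 0.730. Without NL-4, the log2 fold change was 0.03 for *Slc32a1* and -0.02 for *Chat*, and neither passed the adjusted p of 0.05 with or without it.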

How the results depend on the processing

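The count of the 9 genes past the thresholds of the study was 0 under all 24 alternatives. The count past an adjusted p of 0.05 was 0 and became 1 on TPM, after quantile normalization and without LD-1 and LD-7 (*Pax6* each time), 1 with the filter at 1 FPKM (*Gad2*), and 2 without the factor per retina and in limma-voom on the recovered reads (*Pax6* and *Tfap2a*). With 1 retina left out it ranged from 0 to 1. The adjusted p of *Tfap2a* was 0.0418 without the factor and 0.0367 in limma-voom. Under the stricter filter 15624 genes were tested in place of 24508, and the cause of these changes in the count was not tested. Without the factor and in limma-voom the median of all genes moved to 0.11 and 0.12, and relative to it *Tfap2a* was at 0.14 and 0.13.

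Signs turned as follows. On TPM, in limma-voom and without the factor, the log2 fold changes were 0.0545, 0.0834 and 0.0839 for *Calb2*, 0.0643, 0.0930 and 0.0935 for *Slc32a1*, 0.0535, 0.0829 and 0.0825 for *Slc6a17*, and 0.0598, 0.0882 and 0.0890 for *Tfap2b*. In limma-voom and without the factor they were 0.0120 and 0.0126 for *Gad1* and 0.000919 and 0.00211 for *Slc6a9*. The median of all genes was at 0.09 on TPM, 0.12 in limma-voom and 0.11 without the factor. Relative to it, in that order, *Calb2* was at -0.04, -0.04 and -0.03 and *Slc32a1* at -0.03, -0.03 and -0.02. *Gad1* was at -0.11, -0.11 and -0.10 and *Slc6a9* at -0.12, -0.12 and -0.11 on this relative scale. After quantile normalization the log2 fold changes were 0.0727 for *Calb2* and -0.0233 for *Chat*. Without LD-1 and LD-7 they were 0.0404 for *Gad1*, 0.0554 for *Slc32a1*, 0.12 for *Slc6a17* and 0.0560 for *Tfap2b*. With the closest pairs averaged *Slc6a17* was at 0.0476. With 1 retina left out, *Slc32a1* ranged from -0.0853 to 0.0332, *Chat* from -0.0608 to 0.10, *Slc6a17* from -0.13 to 0.0163 and *Tfap2b* from -0.0729 to 0.000748. None of these passed an adjusted p of 0.05.

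Samples with the same replicate number deviated together with r of -0.09 to 0.07, and those with different numbers with r of -0.07 to 0.11. This check showed no pairing by number, but it cannot tell whether samples were handled in pairs. In the 8 retinas that share numbers, the replicate block gave 0 of the 9 genes and 3805 genes in all past an adjusted p of 0.05, against 0 and 4758 without the block. The list genes past that threshold numbered 29 of 100 in all 10 retinas and 27 to 31 with 1 left out. In the 8 retinas they numbered 27 without the block and 21 with it (where *Gphn*, *Chrna3*, *Meis1* and *Vip* lost the call at adjusted p-values of 0.0603, 0.0699, 0.0784 and 0.0547). *Th*, with as few as 92 reads in a retina, is the gene that depth limits most. For each gene, changes inside its printed interval remained possible.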
